A study of Homo sapiens with 15 samples.

Results

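miR-21 was followed as its 2 mature products, hsa-miR-21-5p and hsa-miR-21-3p, which are 2 of the 1707 mature miRNAs listed for every library. They were chosen by name, and both passed the filter on low counts that 562 miRNAs passed. The libraries came from U87MG cells, an established human glioblastoma line, in which HIF1α and HIF2α, the oxygen-regulated subunits of the hypoxia-inducible transcription factors, had been knocked out with lentiviral sgRNAs. The study sequenced these libraries in search of miRNAs that target the transcripts of either factor.

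The 5 groups held 3 libraries each. Control cells without HIF interference were cultured for 24 h in 21% O2 (normoxic control) or in 1% O2 (hypoxic control). The HIF1α-KO and HIF2α-KO groups and the double knockout, HIF1α/HIF2α-KO, were kept in 1% O2 for the same 24 h, so that no knockout was measured in 21% O2. The labels do not say whether the replicates were separate cultures, and the p-values therefore measure the spread between these libraries, which may be technical. The mRNAs of HIF1A and EPAS1 are not measured by this assay, and the knockouts were not checked in these libraries. Whether the knockout cells were single clones or pools is not given in the sources used here.

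miRNAs are short RNAs cut from a hairpin precursor, and the strand that is loaded into an Argonaute protein represses mRNAs that match its seed, bases 2 to 8. The 5p strand of miR-21 is the loaded (guide) strand, and the 3p strand is the partner that is mostly degraded. miR-21 is raised in glioblastoma and many other tumours, where it represses growth-restraining and pro-apoptotic genes such as PDCD4.

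The sequence of miR-21-5p is shown with that of the only other mature miRNA in the RefSeq table (GRCh38.p14) with the same seed, because a shared seed means shared predicted targets. Both are 22 bases long and are written 5′ to 3′ with the seed in capitals.
hsa-miR-21-5p: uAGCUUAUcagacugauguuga
hsa-miR-590-5p: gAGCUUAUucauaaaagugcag
Aligned from the first base, they have the same base at 8 of 22 positions, of which 1 of 15 lies outside the seed. The RefSeq table matched 1545 of the 1707 listed names and 1 of the 2 miR-21 names. miR-21-5p lies on the plus strand at chr17:59841273-59841294. Its 72-base gene MIR21 (ENSG00000284190.1, chr17:59841266-59841337 in GENCODE v29 on GRCh38) lies inside the gene of the vacuole membrane protein VMP1 on the same strand. It overlaps an exon of 1 of the 17 VMP1 transcripts, a retained-intron transcript, and no coding or untranslated segment, and starts 173 bases beyond the last protein-coding VMP1 transcript. miR-590-5p is encoded on chromosome 7, also on the plus strand (chr7:74191213-74191234).

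miR-21-5p was the first-ranked miRNA in 13 of 15 libraries and held 20.4% ± 2.63 of all counts (SD, n = 15 libraries), from 16.5% to 25.5%. These shares rested on 1818072 to 4002387 counts. The 95% Wilson interval was 16.49% to 16.52% in the library with the lowest share and 25.50% to 25.55% in that with the highest, and all such intervals cover counting error only. The spread between libraries was therefore far wider than the counting error.

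The next most abundant miRNAs were miR-100-5p with 16.1% ± 1.51 and miR-99a-5p with 15.8% ± 1.49 (SD, n = 15 libraries). Their sequences are shown because the rank of miR-21-5p depends on how reads were divided between them. The single base at which they differ is in capitals.
hsa-miR-100-5p: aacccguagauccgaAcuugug
hsa-miR-99a-5p: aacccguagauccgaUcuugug
miR-100-5p had 1.015 to 1.020 counts for each count of miR-99a-5p in every library, and how the counting treated reads that match both is not given in the sources used here, so both levels are uncertain. Taken separately, miR-100-5p exceeded miR-21-5p in 2 libraries, normoxic control replicate 2 and hypoxic control replicate 1, and miR-99a-5p also did so in 1 of them. Their sum was 31.9% ± 3.00 of counts (SD, n = 15 libraries) and exceeded miR-21-5p in all 15 libraries. If reads that match both were counted for each, this sum counts them 2 times. Whether both together exceeded miR-21-5p is therefore uncertain. Such double counting would also enlarge the library totals, so that the shares and CPM of the other miRNAs, miR-21-5p included, would be understated.

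After these came let-7a-5p with 9.78%, while let-7c-5p, let-7i-5p, let-7g-5p, let-7b-5p, miR-26a-5p and miR-221-3p each had a mean of 2.20% to 3.46%. The let-7 miRNAs mark differentiated cells and repress RAS and HMGA2. The 10 most abundant miRNAs held 79.8% of all counts on average, so a gain in the share of one of them lowers the shares of the others.

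Total counts ranged from 10360337 to 22496373, and 3 counts, the floor used here, equalled at most 0.290 CPM (counts scaled to a library total of 1000000). No library was a copy of another of its group, since counts of replicates differed with a chi-square of at least 49.3 per degree of freedom. Libraries of different groups were not compared in this way. Of the marker miRNAs of other cell types, neuronal miR-124-3p had 0 counts in 10 libraries. Of the blood markers, miR-486-5p had 0 counts in 14 libraries, miR-223-3p in 9 and miR-144-3p in 4, while miR-142-3p, miR-142-5p, miR-150-5p and miR-451a were detected in all 15, the last at 2.08 to 18.7 CPM. Epithelial miR-200c-3p lay between 31.8 and 54.7 CPM, and the sum of the 4 epithelial markers between 38.4 and 99.2 CPM. The part of blood and epithelial markers in the results was not tested. Glioblastoma-associated miR-10b-5p lay between 2307 and 3994 CPM. Endothelial miR-126 (both strands summed) divided the libraries at 1 gap. It lay between 3.90 and 6.95 CPM in 6 libraries and between 14.5 and 51.9 CPM in 9, and every group but the normoxic control had libraries on both sides. The muscle markers miR-1-3p and miR-133a-3p, summed, lay between 1.60 and 7.13 CPM in normoxic control and 6.78 and 27.2 CPM in hypoxic control libraries. They lay between 9.07 and 46.7 CPM in HIF1α-KO, 2.38 and 16.99 in HIF2α-KO and 20.9 and 47.0 CPM in HIF1α/HIF2α-KO libraries. Their part in the results was not tested. Results are given within both miR-126 sets where these hold libraries.

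Knockout cells had larger shares of miR-21-5p than control cells under hypoxic conditions. Its share was 17.1%, 16.5% and 19.0% in the 3 hypoxic control libraries. It was 20.1%, 19.4% and 22.8% with HIF1α knocked out and 19.4%, 23.1% and 23.1% with HIF2α knocked out. The HIF1α/HIF2α-KO libraries reached 25.5%, 22.1% and 21.5%. All 9 knockout libraries (19.4% to 25.5%) thus lay above all 3 hypoxic controls (16.5% to 19.0%). Such a split, with every knockout library above every hypoxic control, was found for 1.6% of the miRNAs tested (9 of 562). The opposite split, with every knockout library below, was found for 3.02% (17 of 562).

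**Figure D1:**
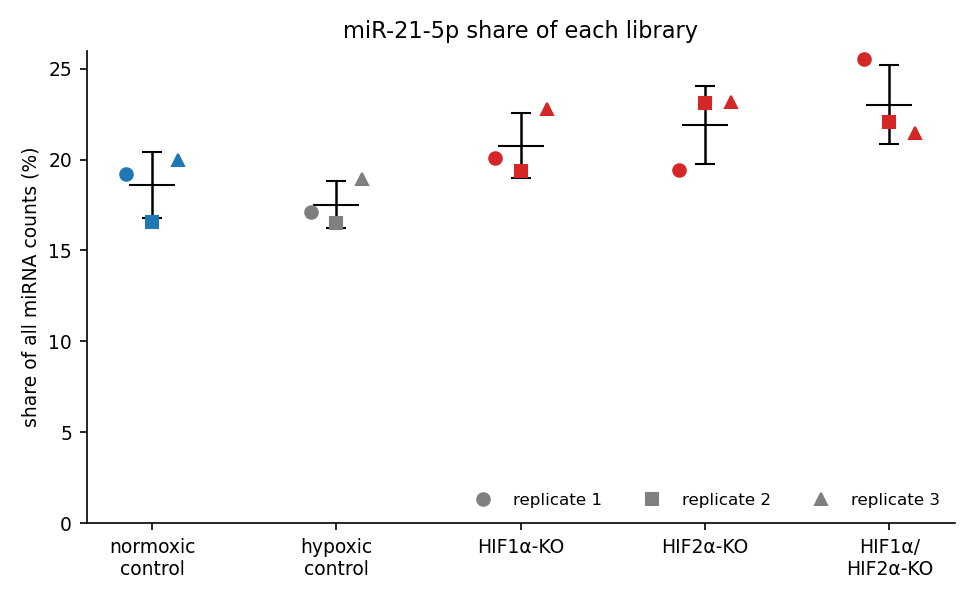
Each point is the share of all miRNA counts in percent held by miR-21-5p in 1 library, with a marker for each replicate number, and the horizontal bar with whiskers is the group mean ± SD (n = 3). The 9 knockout libraries lie at 19.4% to 25.5%, above the hypoxic controls at 16.5% to 19.0%, while the normoxic controls reach 20.0%.

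The separation was narrower once library composition was taken into account. With TMM factors, which scale libraries so that most miRNAs do not differ, 8 of 9 knockout libraries remained above all hypoxic controls, and HIF1α-KO replicate 1, at 189396 CPM, fell below hypoxic control replicate 3, at 192576 CPM. With these factors 2.14% of miRNAs (12 of 562) had every knockout library above every hypoxic control, and miR-21-5p was not among them. The log2 fold changes from edgeR that follow use these factors. Shares and CPM are relative measures, so that more miR-21-5p per cell and less of the other miRNAs cannot be told apart.

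In HIF1α-KO cells, miR-21-5p held 20.8% ± 1.78 of counts against 17.5% ± 1.28 in hypoxic control cells (SD, n = 3), and the shares did not overlap. Of all miRNAs tested, 11.7% had non-overlapping, higher shares in this comparison. The log2 fold change was 0.20 (SE 0.13, 95% interval -0.07 to 0.47) with an adjusted p of 0.597 in edgeR's quasi-likelihood test, which called 1.25% of miRNAs (7 of 562). A rise was therefore not shown.

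In HIF2α-KO cells, the share was 21.9% ± 2.14 (SD, n = 3), again without overlap with the hypoxic controls, where 3.91% of miRNAs had non-overlapping, higher shares. The log2 fold change of 0.46 (SE 0.13, 95% interval 0.19 to 0.73), a 1.38-fold difference, was larger than that in the other 6 comparisons with TMM factors. With total counts it was 0.32, below the 0.39 of HIF1α/HIF2α-KO cells. Its unadjusted p was 0.00279, with 11 of 562 miRNAs at or below it, but its adjusted p was 0.124 in edgeR. The paper's supplement lists this miRNA as up in HIF2α-KO against control cells, a call that was not reached here. Whether that list rests on adjusted p-values is not given in the sources used here. In this comparison edgeR called 0% of miRNAs (0 of 562) and DESeq2 and limma also called 0, although 86 (15.3%) had an unadjusted p under 0.05 in edgeR.

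In HIF1α/HIF2α-KO cells, the share was 23.0% ± 2.19 (SD, n = 3), the highest of the 5 groups, where 16.2% of miRNAs had non-overlapping, higher shares than in the hypoxic controls. The log2 fold change was 0.33 (SE 0.13, 95% interval 0.06 to 0.60), with an unadjusted p of 0.0199 and an adjusted p of 0.112 in edgeR, which called 5.87% of miRNAs (33 of 562). miR-21-5p passed the threshold when libraries were scaled to total counts alone, reaching 0.39 on the log2 scale at an adjusted p of 0.0484 in edgeR. In 2-sided exact permutation tests of the share, each of these knockout comparisons gave p = 0.1, which is the minimum for 3 libraries against 3.

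The gains over hypoxic control cells were present in both sets of libraries defined by miR-126. Among libraries with more miR-126, the mean share was higher by 5.65 percentage points with HIF1α knocked out, 4.16 with HIF2α and 6.68 with both, each against 1 control library. Among libraries with less miR-126, it was higher by 2.01, 5.37 and 3.75 percentage points against 2 control libraries. These differences rest on 1 or 2 libraries per group and carry no test.

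No difference of miR-21-5p between oxygen levels was detected in control cells. The hypoxia-induced miR-210-3p did not pass in that comparison either (log2 fold change -0.19, adjusted p 0.841 in edgeR). miR-21-5p held 19.2%, 16.6% and 20.0% of counts in the normoxic controls, 18.6% ± 1.80 (SD, n = 3), and this range contained most of that of the hypoxic controls. The log2 fold change in hypoxic against normoxic control cells was -0.13 (95% interval -0.40 to 0.14, adjusted p 0.815 in edgeR, exact permutation p = 0.4). No normoxic library had less miR-126, so that the comparison could be made within the other set only, where the share was lower by 1.47 percentage points in the 1 hypoxic library. edgeR, DESeq2 and limma called 0% of miRNAs in this comparison, and 35 (6.23%) had an unadjusted p under 0.05 in edgeR.

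From the lowest to the highest mean share, the groups were ordered as hypoxic control, normoxic control, HIF1α-KO, HIF2α-KO and, last, the double knockout. Each group's libraries overlapped those of the next group. Of the neighbours, normoxic control and HIF1α-KO were not compared by a test, and the other neighbours did not pass it. With TMM factors, HIF2α-KO (238622 CPM) moved above HIF1α/HIF2α-KO (218524 CPM). The TMM factors of the HIF2α-KO libraries, 0.898 to 0.949, were the lowest of all 15.

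Between knockouts, miR-21-5p did not pass the test in any comparison. The log2 fold change was 0.26 in HIF2α-KO against HIF1α-KO cells (95% interval -0.01 to 0.53, adjusted p 0.301 in edgeR), where 1.07% of miRNAs were called. It was 0.14 in HIF1α/HIF2α-KO against HIF1α-KO cells (95% interval -0.14 to 0.41, adjusted p 0.736), where 1.42% were called. HIF1α/HIF2α-KO against HIF2α-KO cells gave -0.13 (95% interval -0.40 to 0.14, adjusted p 0.618), where 1.78% were called, although the mean share was higher in HIF1α/HIF2α-KO cells, so the direction depended on the scaling. Within the miR-126 sets, the difference in share between HIF2α-KO and HIF1α-KO cells was -1.49 percentage points with more and 3.36 with less miR-126, and that between HIF1α/HIF2α-KO and HIF2α-KO cells was 2.52 and -1.63.

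The effect of HIF1α loss in the absence of HIF2α was also compared with its effect in the presence of HIF2α. The difference of these effects on miR-21-5p was -0.32 on the log2 scale (SE 0.18, unadjusted p 0.0911, adjusted p 0.624 in edgeR), in a comparison with 0% of miRNAs called by edgeR, DESeq2 or limma and 59 (10.5%) with an unadjusted p under 0.05. Across all 5 groups, miR-21-5p had an unadjusted p of 0.0237 and an adjusted p of 0.129 in edgeR, which called 6.23% of miRNAs (35 of 562).

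**Figure D2:**
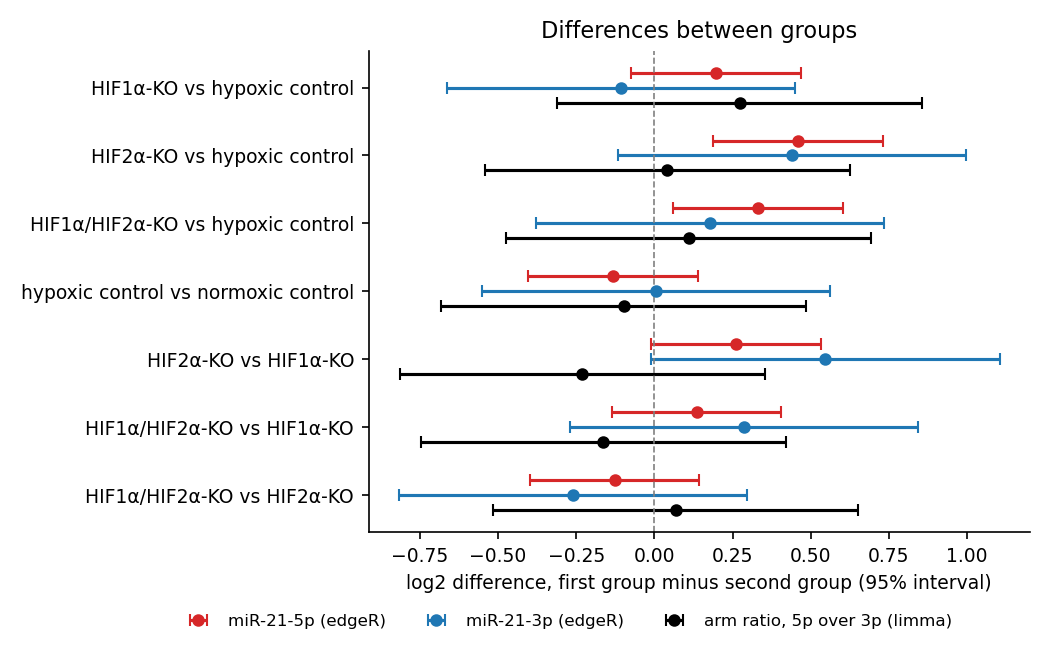
Points give log2 differences of miR-21-5p, miR-21-3p and the ratio of both arms in the 7 comparisons, and bars give 95% intervals. For miR-21-5p the intervals in HIF2α-KO cells (0.19 to 0.73) and HIF1α/HIF2α-KO cells (0.06 to 0.60) against hypoxic control cells lie above 0, although neither adjusted p passed 0.05, and all other intervals include 0.

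miR-210-3p, the miRNA most strongly induced by HIF1α in many cell types, served as the reference for a HIF-dependent miRNA. Its mean was 1162 CPM ± 149.97 in normoxic control cells, 1056 ± 129 in hypoxic control cells, 324 ± 125.7 in HIF1α-KO, 1425 ± 369 in HIF2α-KO and 236 ± 111 in HIF1α/HIF2α-KO cells (SD, n = 3). Its log2 fold change was -1.76 with HIF1α knocked out (adjusted p 0.0126 in edgeR) and -2.21 with both factors knocked out (adjusted p 0.00402), so that it fell in both. No rise from 21% to 1% O2 was detected, as given above, so it serves as a reference for the loss of HIF1α and not for oxygen. Across the 15 libraries the correlation of its log2 level with that of miR-21-5p was -0.08.

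miR-21-5p varied little between replicates. Its SD within groups was 0.15 on the log2 scale, the median over the 562 miRNAs tested was 0.30, and 7.47% of miRNAs varied less. The miRNAs were not matched for abundance, on which this SD depends. For miR-21-3p the same SD was 0.34, with 63.7% of miRNAs varying less.

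miR-21-3p, the partner strand, was far less abundant and did not change detectably. It lay at 355 to 818 CPM, from 4866 to 9435 counts, and ranked between 51 and 74 in the libraries. This still placed it above 88.6% of the miRNAs tested (498 of 562), whose median was 6.66 CPM.

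In the normoxic controls miR-21-3p was at 390, 440 and 496 CPM, and in the hypoxic controls at 633, 355 and 389 CPM. The HIF1α-KO libraries had 430, 360 and 532 CPM. With HIF2α knocked out, the levels were 419, 818 and 455 CPM. Levels with both factors knocked out were 495, 542 and 587 CPM. All groups overlapped, with HIF2α-KO replicate 2 and hypoxic control replicate 1 each well above the other libraries of their group. Group means ran from 441 ± 86.4 in HIF1α-KO through 442 ± 52.9 in normoxic control, 459 ± 152 in hypoxic control and 541 ± 46.2 in HIF1α/HIF2α-KO to 564 ± 221 CPM in HIF2α-KO cells (SD, n = 3), and each group overlapped the next.

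**Figure D3:**
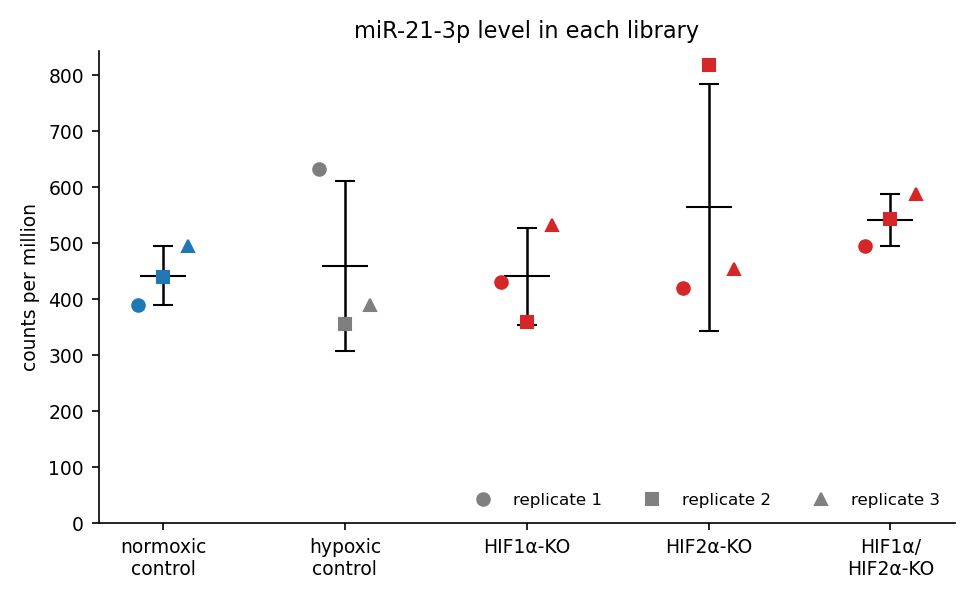
Each point is the level of miR-21-3p in CPM in 1 library, with a marker for each replicate number, and the bar with whiskers is the group mean ± SD (n = 3). The groups overlap, and HIF2α-KO replicate 2 at 818 and hypoxic control replicate 1 at 633 CPM stand above the other libraries of their groups.

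Against hypoxic control cells, the log2 fold change of miR-21-3p was -0.11 in HIF1α-KO (95% interval -0.66 to 0.45, adjusted p 0.963 in edgeR), 0.44 in HIF2α-KO (-0.12 to 1.00, adjusted p 0.474) and 0.18 in HIF1α/HIF2α-KO cells (-0.38 to 0.73, adjusted p 0.733). The value in HIF2α-KO cells was close to that of miR-21-5p, but without HIF2α-KO replicate 2 it was 0.04 and without hypoxic control replicate 1 it was 0.73. That in HIF1α-KO cells was 0.22 without hypoxic control replicate 1. In the remaining comparisons the adjusted p was between 0.301 and 0.996 in edgeR, and the largest log2 fold change was 0.55, in HIF2α-KO against HIF1α-KO cells (95% interval -0.01 to 1.10), which was 0.12 without HIF2α-KO replicate 2. The SE of the log2 fold changes against hypoxic control cells was 0.26 for miR-21-3p and 0.13 for miR-21-5p, so that smaller differences could be seen in miR-21-5p.

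Within the miR-126 sets, miR-21-3p did not keep its direction in the 3 comparisons of knockout with hypoxic control cells. The differences for HIF1α-KO, HIF2α-KO and the double knockout, in that order, were -101, -196 and -115 CPM among libraries with more miR-126, and 22.8, 446 and 215 CPM among those with less. The single control library with more miR-126 was hypoxic control replicate 1.

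The arms of miR-21 were very unequal, with 5p in large excess over 3p. Of the counts of both arms, 3p held 0.241% on average (0.185% to 0.368%). The mean ratio was 423-fold (8.73 on the log2 scale), compared with a median of 12.3-fold between the stronger and weaker arm in the 142 hairpins whose arms both passed the filter. miR-21 was 6th of these hairpins by 5p over 3p and 10th by the size of the ratio in either direction, and 71 of the 142 had more 5p than 3p. Hairpins with an arm too low for the filter were not ranked, and the ranking was not matched for abundance.

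The counts of 5p per count of 3p were 493, 377 and 403 in the normoxic controls and 270, 464 and 487 in the hypoxic controls. They were 467, 538 and 428 in HIF1α-KO, 463, 282 and 509 in HIF2α-KO and 516, 407 and 366 in HIF1α/HIF2α-KO cells. The groups overlapped throughout, and the 2 lowest ratios, 270 in hypoxic control replicate 1 and 282 in HIF2α-KO replicate 2, belonged to the libraries with the most miR-21-3p.

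**Figure D4:**
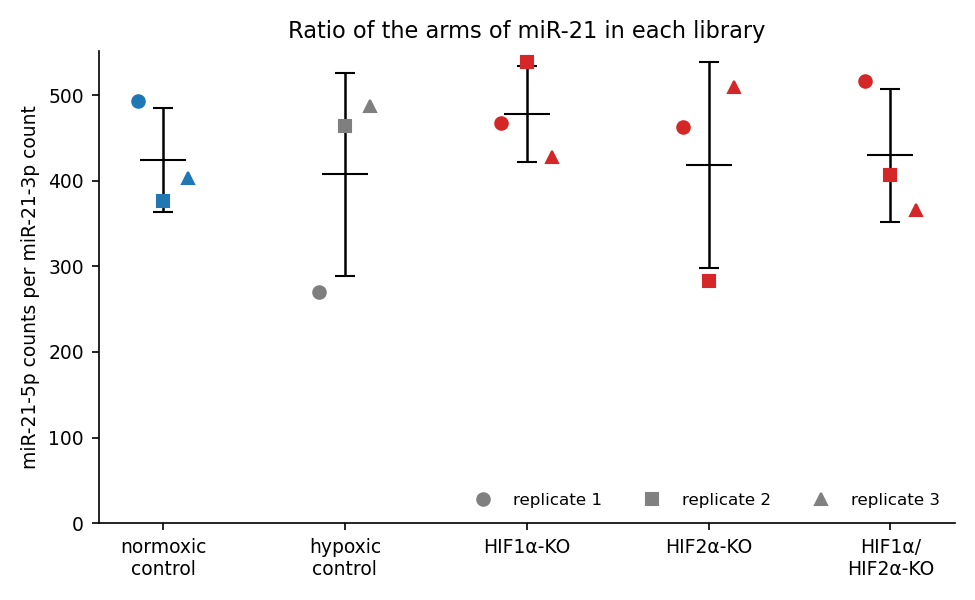
Each point is the number of miR-21-5p counts per miR-21-3p count in 1 library, with a marker for each replicate number, and the bar with whiskers is the group mean ± SD (n = 3). Hypoxic control replicate 1 at 270 and HIF2α-KO replicate 2 at 282 lie below the other 13 libraries, which lie between 366 and 538.

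In those libraries the other hairpins did not shift in the same way. The log2 ratio of miR-21 was lower by 0.81 in hypoxic control replicate 1 than in the other libraries of its group, where the median over 142 hairpins was -0.02 and 7.04% of hairpins had a lower value. In HIF2α-KO replicate 2 it was lower by 0.78, with a median of 0.01 over hairpins and 12.0% with a lower value. The first of these libraries had more and the second less miR-126.

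The arm ratio of miR-21 did not change detectably in any comparison. Against hypoxic control cells its log2 difference was 0.27 in HIF1α-KO (95% interval -0.31 to 0.86, adjusted p 0.925 in limma), 0.04 in HIF2α-KO (-0.54 to 0.62, adjusted p 0.976) and 0.11 in HIF1α/HIF2α-KO cells (-0.47 to 0.69, adjusted p 0.828). In hypoxic against normoxic control cells it was -0.10 (-0.68 to 0.49, adjusted p 0.989), and between knockouts it lay between -0.23 and 0.07 with adjusted p of 0.740 to 0.923. limma called the ratio of 0% of the 142 hairpins in each comparison, with 3 to 25 hairpins at an unadjusted p under 0.05. Several of these differences depended on hypoxic control replicate 1 and HIF2α-KO replicate 2. The HIF1α-KO difference was 0.001 without the first. The HIF2α-KO difference was -0.23 without the first, a change of direction, and 0.30 without the second.

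Across the 15 libraries, the log2 levels of both arms had a Pearson r of 0.44 (permutation p = 0.106, adjusted 0.212) and a Spearman rho of 0.52 (permutation p = 0.0493, adjusted 0.0986), in a family of 4 relations. Without the 2 libraries farthest from the median of miR-21-5p, r was 0.38. For deviations from the group means, r was 0.28 (permutation p = 0.316, adjusted 0.421). r was 0.05 in the 9 libraries with more miR-126 (exact permutation p = 0.895) and 0.88 in the 6 with less (exact permutation p = 0.0139, adjusted 0.0556). None of the 4 relations passed after adjustment, and the difference between the sets was not tested. Each point is 1 library, and both levels share its total.

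By their pattern over the 15 libraries, the miRNAs most like miR-21-5p among 245 candidates were miR-16-5p (r = 0.76), miR-15a-5p (0.75), miR-106b-5p (0.72), miR-20a-5p (0.72) and miR-17-5p (0.72). miR-16-5p and miR-15a-5p share a seed and restrain the cell cycle, and the other three share the seed of the growth-promoting miR-17 family. For miR-21-3p they were miR-34a-5p (r = 0.90), a target of p53, miR-140-3p (0.87), miR-16-5p (0.86), miR-125b-2-3p (0.85) and miR-652-3p (0.84). These are correlations of log2 TMM-scaled CPM, chosen as the highest values, and all points share libraries and scaling factors.

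miR-590-5p, which shares the seed printed above, was near the limit of detection and added little to the pool of that seed. Its mean was 1.11 CPM ± 0.692 in normoxic control, 1.16 ± 0.719 in hypoxic control, 0.361 ± 0.327 in HIF1α-KO, 0.508 ± 0.368 in HIF2α-KO and 1.22 ± 0.815 in HIF1α/HIF2α-KO cells (SD, n = 3). Its adjusted p was at least 0.433 in every pairwise comparison in edgeR. miR-21-5p in turn lay between 165043 and 255236 CPM.

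Of 14 other miRNAs known to promote glioma growth, all tested, 0 passed in HIF1α-KO or HIF2α-KO cells against hypoxic control cells, where edgeR called 1.25% and 0% of all miRNAs. In HIF1α/HIF2α-KO cells 1 rose and 1 fell, or 14.3% of the list beside 5.87% of all miRNAs. Because the list was chosen with earlier results of these data known, the larger share does not set it apart. miR-182-5p, which represses inhibitors of NF-κB signalling, rose from 158 to 256 CPM (log2 fold change 0.64, adjusted p 0.0394 in edgeR), and miR-196a-5p, encoded in the HOX clusters, fell from 143 to 80.2 CPM (-0.91, adjusted p 0.0214). miR-20a-5p, at 260 and 417 CPM, did not pass (0.62, adjusted p 0.0742), and neither did miR-25-3p, at 3946 and 3239 CPM (-0.35, adjusted p 0.0742).

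The median log2 fold change of that list was 0.18 in HIF1α-KO, 0.37 in HIF2α-KO and 0.03 in HIF1α/HIF2α-KO cells against hypoxic control cells, with -0.05, -0.01 and -0.02 over all miRNAs tested. These medians carry no test, and the list was chosen with earlier results of these data known. Of 10 miRNAs known to restrain glioma growth, 7 were tested and 0 passed in edgeR in any of the 7 comparisons, in which 0% to 5.87% of all miRNAs were called, so that 0 of 7 does not set this list apart. Their medians in the same knockout comparisons were 0.01, 0.10 and 0.14. The p53-responsive miR-34a-5p, whose pattern was the most like that of miR-21-3p, is among them. Of the 10 most abundant miRNAs, let-7i-5p fell in HIF1α/HIF2α-KO against hypoxic control cells (-0.45 on the log2 scale, adjusted p 0.0281 in edgeR).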

How the data were processed

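miRNA-Seq libraries of U87MG cells were grouped by genotype, oxygen and replicate number in their labels. The files deposited by the authors hold a whole-number read count for each mature miRNA, with no normalization. The submitters' processing notes name HISAT2, StringTie and DESeq2 without roles. The aligner's settings, the genome build and the handling of reads that match several miRNAs are not given in the sources used here. The supplementary methods name quantile normalization with limma, which the deposited counts do not include.

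Counts were fitted with edgeR 4.0.16 in R 4.3.3, with TMM factors, filterByExpr (562 miRNAs kept) and 1 mean per group over all 15 libraries. Each comparison was a contrast tested by quasi-likelihood with Benjamini-Hochberg adjustment over the 562 miRNAs at 0.05. The arm ratio, log2((5p + 0.5)/(3p + 0.5)), was tested with limma 3.58.1 over the 142 hairpins of 526 whose arms both passed the filter. CPM are counts scaled to a library total of 1000000. Shares were also compared by 2-sided exact permutation tests, and correlations by permutation (100000 resamples, or all orders below 10 libraries). Scripts were tested on simulated data.

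The alternatives were size factors and the Wald test of DESeq2 1.42.0, total counts, scaling without miR-21-5p, limma on quantile-normalized log2(CPM + 1), other filters, only the libraries compared, a replicate block, miR-126 sets as a covariate, each library left out in turn, and for the arm ratio a pseudocount of 5 and other choices of hairpins and variance prior.

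The miRNAs named were both arms of miR-21, miRNAs with the same seed, the 10 most abundant, the 5 most correlated with each arm among those with a mean of at least 10 CPM, miR-210-3p, and members of lists of glioma miRNAs that passed or up to 4 others. The members and lists were chosen with earlier results of these data known.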

Additional observations from a re-analysis of the deposited data

How the results depend on the processing

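The 23 differences of miR-21-5p, miR-21-3p and their ratio were recomputed under 352 alternatives in all, of which 322 kept direction and side of the threshold, 26 changed direction, 3 gave a difference of exactly 0 and 1 came to pass the threshold. The tests over all 5 groups passed under 0 of 48 (lowest adjusted p 0.0794). For miR-21-5p 2 of 134 changed direction, and its gains over hypoxic control cells stayed positive under every alternative. Quantile normalization could not make these gains negative, because miR-21-5p was first-ranked in every knockout library. With libraries scaled to total counts, miR-21-5p in HIF1α/HIF2α-KO against hypoxic control cells passed (0.39, adjusted p 0.0484 in edgeR), and the value against HIF2α-KO cells was 0.0732. Quantile normalization gives the first-ranked miRNA of each library the same value, and miR-21-5p was first in 13 of 15 libraries. Its differences between knockouts were accordingly 0, 0 and 0 by limma, that in hypoxic against normoxic control cells was 0.00786, and that of each knockout against hypoxic control cells was 0.11.

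For miR-21-3p, limma gave 0.0627 in HIF1α-KO against hypoxic control cells. In hypoxic against normoxic control cells it was 0.0042 in the fit reported and -0.0127 with the size factors of DESeq2, -0.0128 in its Wald test, -0.0525 by limma and -0.00783 with only the libraries compared. Its interaction was 0.001004 with total counts. The cause was not tested.

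With 1 library left out in turn, miR-21-5p against hypoxic control cells lay between 0.15 and 0.31 in HIF1α-KO, 0.34 and 0.56 in HIF2α-KO and 0.24 and 0.44 in HIF1α/HIF2α-KO cells. For miR-21-3p the ranges were -0.23 to 0.22 in HIF1α-KO against hypoxic control cells, -0.30 to 0.15 in hypoxic against normoxic control cells, -0.42 to 0.12 in HIF1α/HIF2α-KO against HIF2α-KO cells and -0.46 to 0.20 for the interaction. For the arm ratio they were -0.23 to 0.30 in HIF2α-KO and -0.16 to 0.26 in HIF1α/HIF2α-KO against hypoxic control cells, -0.25 to 0.17 in hypoxic against normoxic control cells, -0.40 to 0.0294 in HIF2α-KO against HIF1α-KO cells and -0.19 to 0.23 in HIF1α/HIF2α-KO against HIF2α-KO cells.

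Same-numbered libraries did not deviate together in every comparison (correlations of deviations from -0.64 to 0.61), so the numbers were not taken as pairs. With the replicate block, miR-21-5p against hypoxic control cells was 0.20 in HIF1α-KO (adjusted p 0.594 in edgeR), 0.46 in HIF2α-KO (0.231) and 0.34 in the double knockout (0.118). The block changed no call of miR-21.

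The number of miRNAs called moved more. In HIF1α/HIF2α-KO against hypoxic control cells it was 33 in the fit reported, 26 to 61 under other settings and 15 to 32 with 1 library left out. In HIF1α-KO cells it was 7, and 0 to 12 under other settings. In HIF2α-KO cells it was 0, 11 without a filter on low counts and up to 10 with 1 library left out. In hypoxic against normoxic control cells it was 0, and 15 without a filter. For the interaction it was 0, and 5 without a filter. Between knockouts it was 6, 8 and 10, and 0 to 20, 0 to 26 and 2 to 21 under other settings. Over all 5 groups it was 35, 23 to 95 under other settings and 11 to 51 with 1 library left out. Against the counts outside the other 10 most abundant miRNAs, miR-21-5p stood at 48.9% in hypoxic control, 52.6% in HIF1α-KO and 55.8% in both HIF2α-KO and HIF1α/HIF2α-KO cells.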
